A study of Mus musculus with 3 samples.

Results

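The secretory folding and ER stress genes are a list of 38 genes that fold, modify and export secreted proteins or respond when that work is overloaded. They were chosen by name, and all 38 were found among the 32285 gene rows of the tables. They fall into 7 roles: 11 chaperones and co-factors of the endoplasmic reticulum (ER), 4 disulphide foldases, 8 collagen-processing genes, 5 transcription factors of the unfolded protein response, 4 target genes of the integrated stress response, 3 genes of ER-associated degradation and 3 ER-Golgi cargo receptors. They were followed in 3 single-cell RNA-seq libraries of fracture callus, the repair tissue that bridges a broken bone, from 9-week-old female mice of the C3H/HeJ strain whose femur was pinned and broken at midshaft. The library titles give day 7, read here as the time after fracture. Every mouse had the pin and the fracture. The Control library came from mice injected with vehicle, the PTH library from mice given daily injections of a parathyroid hormone fragment at 100 µg/kg, and the YKL library from mice given YKL-05-099, an inhibitor of salt-inducible kinases, at 15 mg/kg. Each group had 1 library, and the number of mice in it was not given in the sources used here, so differences between treatments had no replicate check.

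Proteins bound for secretion enter the ER, where chaperones such as BiP (Hspa5) and Grp94 (Hsp90b1) hold them while foldases such as Pdia6 form their disulphide bonds. Collagen needs further partners: hydroxylases act on its chains (Plod1, Plod2 and the P3h1-Crtap-Ppib complex), and Hsp47 (Serpinh1) binds the finished triple helix. When unfolded protein builds up, the branches of the unfolded protein response act through Xbp1, Atf6 and Atf4. Atf4 also carries the integrated stress response, whose targets include Ddit3 (Chop), Trib3, Asns and Chac1. Creb3l1 and Creb3l2 are membrane-bound relatives of Atf6 known for their part in matrix secretion by bone and cartilage cells.

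After filters on genes per cell and mitochondrial share, 2904 Control, 1906 PTH and 598 YKL cells were analysed. The median number of unique molecules (UMIs) per cell was 11632.5 in Control, 12284 in PTH and 25686 in YKL. The PTH library stood apart in the share of its barcodes over the mitochondrial limit, 44.5% against 17.6% in Control and 18.5% in YKL. Among barcodes with at least 500 genes these shares were 21.5%, 14.3% and 11.8%. A doublet caller marked 40, 7 and 8 barcodes, and doublets may remain. The libraries shared 13 barcodes, of which 1 remained among the cells analysed. Cell classes were named from marker genes, with the 38 genes and their pathway kept out of the clustering. The chondrocyte-like class had 1522, 726 and 418 cells in Control, PTH and YKL. Its cartilage marker Acan stood at 4841, 5276 and 5607 CPM (the UMIs of a gene as a share of all UMIs of its class, on the usual CPM scale), against 73.0, 102 and 38.2 CPM in endothelial-like cells. The osteoblast-lineage-like class was small, with 85, 57 and 25 cells. It was led by Ibsp, Mmp13, Alpl and Spp1 and had 6.15, 32.8 and 62.4 CPM of the mature osteoblast marker Bglap. The chondrocyte-like class had 4.61, 22.3 and 64.1 CPM of it, so Bglap did not separate the classes. The leading genes named are also on the list of hypertrophic cartilage markers used here. Col1a1 was 12815, 18752 and 15729 CPM in the osteoblast-lineage-like class and 2998, 5111 and 4343 CPM in the chondrocyte-like class. Acan in the osteoblast-lineage-like class was 973, 1035 and 711 CPM.

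The promoters of several members carry known response elements, and the letters are shown here because members of a role share them. In the RefSeq promoters of build GRCm38.p6, 30 of the 38 members matched by symbol, and Manf, Hyou1, Fkbp10, Plod2, Atf6, Creb3l1, Kdelr2 and Lman1 were not matched. The 250 bases before each start were searched on both strands for 4 elements. The ER stress response element (ERSE), spelled CCAAT and CCACG with 9 bases of any kind between them, was in 7 of the 30 members, or 23.3%, and in 0.13% of 27025 genes. The 7 were Hspa5, Hsp90b1, Calr, Canx, Dnajc3, Creld2 and Pdia6. They are 6 of the chaperones and 1 of the foldases. ERSE-II, spelled ATTGG and CCACG with 1 base of any kind between them, was in Herpud1 alone among the members (3.33%), against 0.037% of all genes. The unfolded protein response element (UPRE), spelled TGACGTGG, was in Kdelr3 alone, against 0.603% of all genes. The C/EBP-ATF element, spelled TGATGNAA, was in Asns, Chac1 and Herpud1, or 10% of the members, against 3.91% of all genes. ERSE, ERSE-II and UPRE share the letters CCACG or their reverse complement, but no match of 1 element overlapped a match of another in the members. In the windows that follow, read 5′ to 3′ along the gene, the capitals mark the matched element. Hspa5 and Hsp90b1 are shown as the chaperones with 1 and 2 ERSE matches, Pdia6 as the foldase, Herpud1 for its pair of different elements, Kdelr3 for the UPRE and Asns for the element of the stress response targets.
Hspa5 (chr2:34771840-34772089, plus strand): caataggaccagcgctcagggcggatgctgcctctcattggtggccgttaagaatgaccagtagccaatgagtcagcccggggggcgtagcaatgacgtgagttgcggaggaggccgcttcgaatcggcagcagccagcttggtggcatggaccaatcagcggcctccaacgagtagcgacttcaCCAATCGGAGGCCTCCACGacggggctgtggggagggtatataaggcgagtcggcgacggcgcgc
Hsp90b1 (chr10:86705445-86705694, minus strand): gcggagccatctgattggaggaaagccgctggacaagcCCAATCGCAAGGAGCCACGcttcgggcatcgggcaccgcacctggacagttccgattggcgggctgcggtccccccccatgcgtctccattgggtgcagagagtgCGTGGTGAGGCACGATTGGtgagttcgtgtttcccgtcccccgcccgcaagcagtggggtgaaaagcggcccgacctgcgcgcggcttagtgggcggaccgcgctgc
Pdia6 (chr12:17266339-17266588, plus strand): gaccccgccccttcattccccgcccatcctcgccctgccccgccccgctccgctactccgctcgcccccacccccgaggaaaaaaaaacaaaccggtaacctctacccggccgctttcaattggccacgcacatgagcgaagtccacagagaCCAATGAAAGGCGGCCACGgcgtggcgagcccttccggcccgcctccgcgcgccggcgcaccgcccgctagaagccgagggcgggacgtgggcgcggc
Herpud1 (chr8:94386179-94386428, plus strand): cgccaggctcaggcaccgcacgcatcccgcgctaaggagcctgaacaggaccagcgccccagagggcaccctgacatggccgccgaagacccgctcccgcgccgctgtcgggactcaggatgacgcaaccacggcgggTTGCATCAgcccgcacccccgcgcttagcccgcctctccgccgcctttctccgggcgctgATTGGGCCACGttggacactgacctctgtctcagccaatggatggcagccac
Kdelr3 (chr15:79516158-79516407, plus strand): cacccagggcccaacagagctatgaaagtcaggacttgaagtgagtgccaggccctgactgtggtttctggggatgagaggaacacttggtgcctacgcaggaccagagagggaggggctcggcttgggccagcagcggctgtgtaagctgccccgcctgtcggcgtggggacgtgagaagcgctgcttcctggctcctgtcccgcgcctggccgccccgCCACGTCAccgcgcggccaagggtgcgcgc
Asns (chr6:7693210-7693459, minus strand): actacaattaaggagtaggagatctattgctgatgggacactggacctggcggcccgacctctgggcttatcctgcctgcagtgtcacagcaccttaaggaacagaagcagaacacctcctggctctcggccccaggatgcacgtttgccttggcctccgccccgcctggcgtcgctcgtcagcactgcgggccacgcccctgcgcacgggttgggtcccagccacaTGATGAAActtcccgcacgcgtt
The Hspa5 element lay 65 to 47 bases before the start and the Pdia6 element 98 to 80 bases before it. A match describes these letters and does not show that a factor binds there.

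Most members were higher in the matrix-secreting classes than in endothelial-like cells, which line vessels. Over the 3 libraries, 30 of the 38 members were higher in chondrocyte-like cells and Atf6 alone was lower (edgeR quasi-likelihood test with library as a block, Benjamini-Hochberg adjustment over all genes, threshold 0.05). Of all 10825 genes tested, 26.8% were higher and 24.9% lower. The median log2 difference of the members was 1.77, against 0.05 over all genes. In osteoblast-lineage-like cells 23 members were higher and none lower, beside 17.2% and 15.4% of all genes. In fibroblast-like cells 24 were higher and 2 lower, beside 16.3% and 14.2%. Without the PTH library, which held 291 of the fibroblast-like cells, 10 were higher and 1 lower, beside 1062 and 991 of all 10193 genes. At an unadjusted p under 0.05, 1 member was lower in osteoblast-lineage-like cells, and DESeq2 called 0 lower. All 38 passed the filter on low counts in these fits. Scaling by total UMIs in place of TMM moved the median of all genes from 0.05 to -0.56 in the chondrocyte comparison. It left 27 members higher and 1 lower, beside 1693 and 4932 of all 10825 genes, and no member that passed changed direction. The test's differences are relative to that scaling, so they exceed the ratios of the CPM values given beside them.

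Of the 38 members Plod2 had the largest fitted difference between chondrocyte-like and endothelial-like cells. Plod2, the lysyl hydroxylase of collagen telopeptides, stood at 1541 CPM in Control, 1229 in PTH and 995 in YKL in chondrocyte-like cells. In endothelial-like cells it was 37.8, 48.3 and 16.1 CPM, so the classes did not overlap (log2 difference 5.71 ± 0.64 SE, adjusted p = 2.07e-08). Osteoblast-lineage-like cells lay between, at 619, 380.5 and 601 CPM, and fibroblast-like cells below them at 362, 251 and 324 CPM. In neutrophil-like cells, which secrete no collagen, Plod2 was 49.2, 0 and 12.9 CPM, a level that overlaps the endothelial one. P3h1, the prolyl 3-hydroxylase, followed the same order, with 215, 199 and 184 CPM in chondrocyte-like, 138, 112 and 144 in osteoblast-lineage-like, 86.5, 70.3 and 68.8 in fibroblast-like and 20.6, 22.2 and 24.1 in endothelial-like cells for Control, PTH and YKL. No neighbours in that order overlapped, and the chondrocyte difference from endothelial-like cells was 3.77 ± 0.29 SE, adjusted p = 1.44e-11. Its partner Crtap was at 185, 200.2 and 190.4 CPM in chondrocyte-like cells (2.30 ± 0.28), and the cyclophilin Ppib at 2358, 2005 and 1938 CPM (2.21 ± 0.29).

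Serpinh1, the collagen chaperone Hsp47, was expressed by all stromal classes. It stood at 1915, 2023 and 1848 CPM in chondrocyte-like cells, 1704, 1696 and 1782 in osteoblast-lineage-like, 1136, 1291 and 1195 in fibroblast-like and 594, 659 and 704 in endothelial-like cells, again with no overlap between neighbours. In macrophage-like cells it was 32.3, 19.1 and 8.1 CPM. Fkbp10, a prolyl isomerase of procollagen, was 2.38 ± 0.31 higher in chondrocyte-like than endothelial-like cells on the log2 scale, and Fkbp11, of the same family, 2.37 ± 0.32 higher. Fkbp10 in fibroblast-like cells did not pass the test (0.66 ± 0.31 SE, adjusted p = 0.115). Plod1, the lysyl hydroxylase of the helix, broke the pattern. Its levels were 155, 157 and 183 CPM in endothelial-like cells and 68.0, 51.1 and 68.8 CPM in fibroblast-like cells, which were lower by the test (-1.27 ± 0.27 SE, adjusted p = 0.000474). In chondrocyte-like cells it was 189, 159 and 136 CPM, a difference that did not pass (0.58 ± 0.25 SE, adjusted p = 0.0501). The summed CPM of the collagen genes was 71835, 74429 and 82073 in chondrocyte-like cells, 44376, 45916 and 31297 in fibroblast-like and 2510.4, 3428 and 1346 in endothelial-like cells. The 8 collagen-processing members summed to 6989.5, 6277 and 5707, 3334, 2994 and 3167 and 1733, 1689.8 and 1909 CPM in the same classes.

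**Figure D1:**
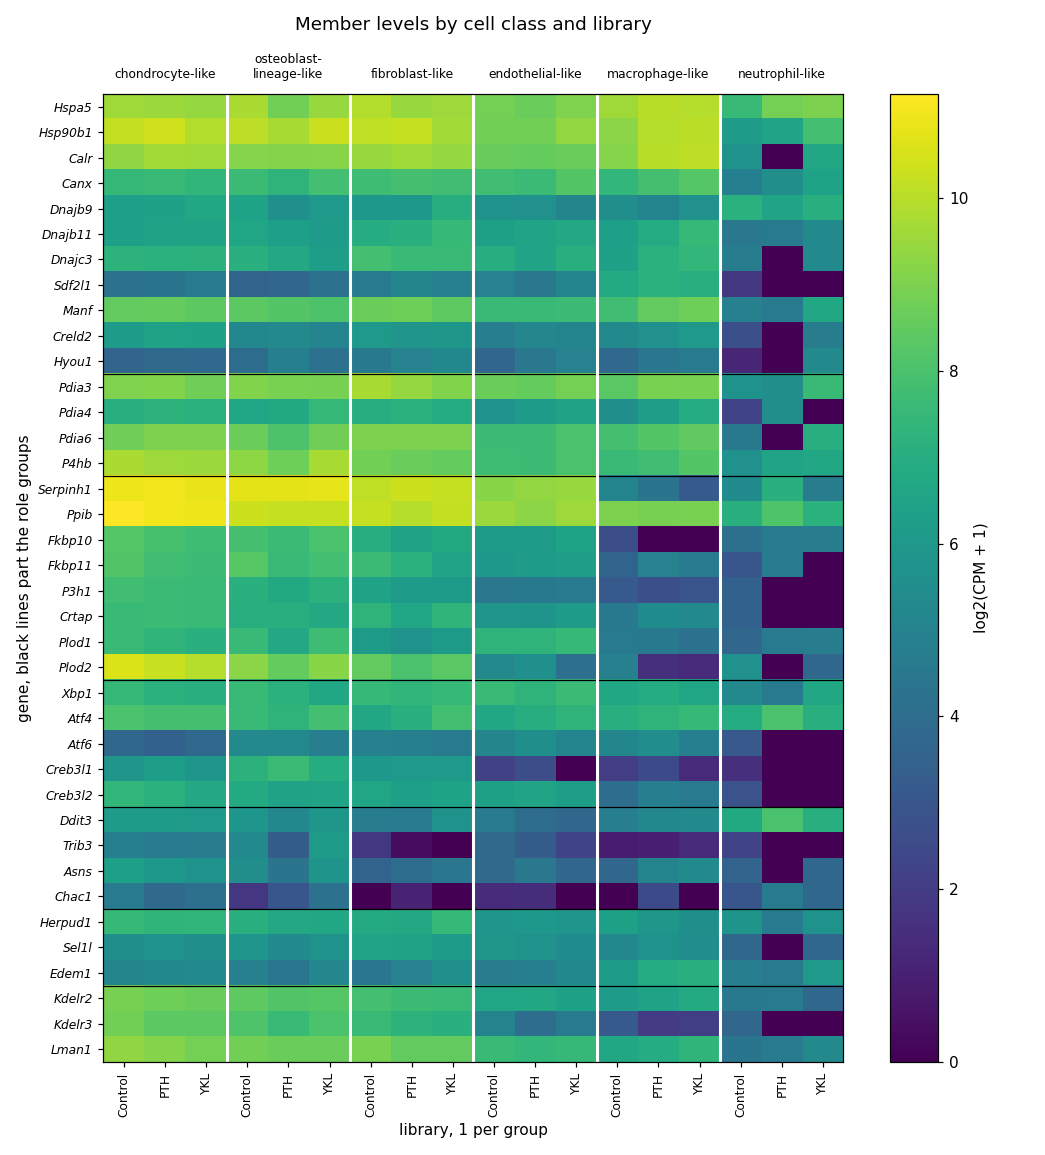
Level of each of the 38 genes (rows, grouped by role) in 6 cell classes and 3 libraries (columns), as log2 of CPM plus 1. Plod2, P3h1 and Kdelr3 are brightest in chondrocyte-like cells and dark in macrophage-like and neutrophil-like cells, whereas Hspa5 is bright in most columns and Canx in all classes but the neutrophil-like one.

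Among the chaperones the differences were smaller, and 7 of 11 were higher in chondrocyte-like than in endothelial-like cells. Creld2, a protein induced with the ER chaperones, differed most, at 72.9, 86.9 and 83.1 against 26.6, 35.0 and 32.2 CPM (1.97 ± 0.25 SE, adjusted p = 2.24e-07). Hsp90b1, which folds integrins and other client proteins, was 1151, 1350.2 and 952 against 454, 457 and 676 CPM (1.76 ± 0.34). Hspa5, the central chaperone and sensor partner BiP, was 790.4, 729 and 699.6 against 463, 396 and 531 CPM (1.30 ± 0.30). The 7 also held Calr, which binds glycoproteins in the ER lumen (1.55 ± 0.35), Manf (1.48 ± 0.29), Dnajb9 (1.51 ± 0.37) and Dnajc3 (0.99 ± 0.31). Canx, the membrane-bound partner of Calr (0.20 ± 0.26), Dnajb11 (0.47 ± 0.26), Sdf2l1 (0.21 ± 0.26) and Hyou1 (-0.00 ± 0.33) did not pass. The chaperones were not particular to matrix cells: macrophage-like cells had 772, 1018 and 993 CPM of Hspa5 and 114, 143 and 134 CPM of Sdf2l1, against 18.4, 18.9 and 24.6 CPM of Sdf2l1 in chondrocyte-like cells. Sdf2l1 in macrophage-like cells lay above every other class compared. All 4 foldases were higher in chondrocyte-like cells by the test. P4hb, which is both a disulphide isomerase and a subunit of prolyl 4-hydroxylase, had 886, 767 and 733 against 213, 202 and 249 CPM (2.47 ± 0.29 SE, adjusted p = 5.49e-08). Pdia6, Pdia4 and Pdia3 differed by 1.77 ± 0.32, 1.64 ± 0.27 and 0.90 ± 0.32. Pdia3 was 522, 548 and 438 against 409, 374 and 459 CPM, so its CPM levels overlapped and were not higher in YKL.

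The transcription factors went different ways. Creb3l1, known as Oasis, had 148, 199.7 and 123 CPM in osteoblast-lineage-like cells, 56.9, 76.9 and 57.3 in chondrocyte-like, 61.3, 64.7 and 64.8 in fibroblast-like and 3.44, 5.32 and 0 in endothelial-like cells. Each of the 3 stromal classes was above the endothelial one, by 5.68 ± 0.35, 4.72 ± 0.35 and 4.23 ± 0.36 on the log2 scale, the chondrocyte and fibroblast levels overlapped, and the osteoblast-lineage-like level lay above the chondrocyte one in every library (chondrocyte minus osteoblast -0.96 ± 0.23 SE, adjusted p = 0.00358). Creb3l2, its relative, was highest in chondrocyte-like cells among the 7 classes with cells enough in every library, at 169, 142 and 107 CPM (1.34 ± 0.25 SE, adjusted p = 5.35e-05 against endothelial-like cells). Atf4 rose likewise (1.59 ± 0.29). Atf6 had the opposite sign, with 12.47, 10.22 and 13.01 CPM in chondrocyte-like against 33.5, 46.1 and 32.2 CPM in endothelial-like cells (-1.03 ± 0.26 SE, adjusted p = 0.00172). Without the PTH library the Atf6 call was lost (adjusted p = 0.122). Xbp1, at 174, 139.7 and 134 CPM in chondrocyte-like and 195, 154 and 195 in endothelial-like cells, did not pass (0.34 ± 0.28 SE, adjusted p = 0.329). These counts do not separate spliced from unspliced Xbp1.

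By the test, all 4 integrated stress response targets were higher in chondrocyte-like and in osteoblast-lineage-like cells than in endothelial-like cells. Ddit3, the transcription factor Chop, had 71.6, 73.3 and 62.9 against 23.2, 14.6 and 12.1 CPM (2.63 ± 0.31 SE, adjusted p = 4.72e-08). Its symbol is carried by 2 gene rows, of which 1 was at 0 throughout, and the other is used here. Asns, which makes asparagine, had 80.1, 62.7 and 52.0 against 13.7, 21.3 and 12.1 CPM (2.52 ± 0.35). Chac1, which degrades glutathione, was sparse, at 23.5, 13.7 and 16.4 against 1.72, 1.77 and 0 CPM (4.11 ± 0.62). Trib3, a pseudokinase, was 1.97 ± 0.40 higher in chondrocyte-like cells. In osteoblast-lineage-like cells of Control, PTH and YKL, Asns was 45.5, 18.9 and 55.3 CPM, in PTH below the endothelial level. Chac1 was 2.46, 6.95 and 17.8 CPM there. Trib3 was 40.6, 8.94 and 67.7 CPM, against 13.7, 8.87 and 4.02 in endothelial-like cells. In fibroblast-like cells Trib3 was lower than in endothelial-like cells (2.52, 0.295 and 0 CPM, -3.13 ± 0.78 SE, adjusted p = 0.00249, and 0.113 without the PTH library). Asns and Chac1 in fibroblast-like cells did not pass (-0.10 ± 0.43 and -0.68 ± 1.15). Ddit3 was highest in neutrophil-like cells, at 110.5, 252 and 129 CPM, above every chondrocyte-like library. The PTH and YKL neutrophil-like classes held only 43687 and 77229 UMIs in total, so their levels rest on few molecules. With each cell thinned to 2000 UMIs, Ddit3 was detected in 12.9%, 12.7% and 10.9% of chondrocyte-like and 17.2%, 33.3% and 16.7% of neutrophil-like cells, against 48.6%, 50.1% and 62.0% and 30.2%, 38.1% and 43.8% unthinned. The thinned neutrophil-like shares rest on 326, 9 and 12 cells, and the median depth was 3061, 1923 and 2668.5 UMIs against 16581.5, 18047 and 30180 in chondrocyte-like cells. Creb3l1, by the same measure, was detected in 12.2%, 12.8% and 9.14% of chondrocyte-like cells and in 0 of the thinned neutrophil-like cells of each library. Unthinned, the shares were 51.1%, 59.5% and 60.3% in chondrocyte-like cells, against 0.696%, 0% and 0% in neutrophil-like cells.

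The degradation and export genes completed the pattern. Herpud1, a degradation factor that ER stress induces, was 181, 159 and 164 CPM in chondrocyte-like and 57.6, 62.5 and 56.3 CPM in endothelial-like cells (2.12 ± 0.30 SE, adjusted p = 9.91e-07). Edem1, which marks misfolded glycoproteins for disposal, was 0.93 ± 0.27 higher by the test but stood highest in macrophage-like cells, at 71.7, 121 and 139 CPM. Its chondrocyte-like levels of 33.3, 36.3 and 38.4 CPM overlapped the endothelial-like ones of 24.9, 27.5 and 36.2 CPM. Sel1l, the adaptor of the Hrd1 ligase, did not pass (0.51 ± 0.24 SE, adjusted p = 0.0756). The 3 cargo receptors were higher in all 3 stromal classes. Kdelr3, which returns escaped ER proteins, was 447, 331 and 337 CPM in chondrocyte-like and 30.9, 15.1 and 24.1 CPM in endothelial-like cells (4.68 ± 0.34 SE, adjusted p = 5.07e-12). Its paralog Kdelr2 was 483, 427 and 386 against 98.8, 105 and 84.5 CPM (2.78 ± 0.28), and the lectin Lman1 647, 554 and 467 against 194, 172 and 183 CPM (2.22 ± 0.28). Reads of the Kdelr paralogs and of the Pdia and Plod families could be shared where their sequences are alike, which was not examined.

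**Figure D2:**
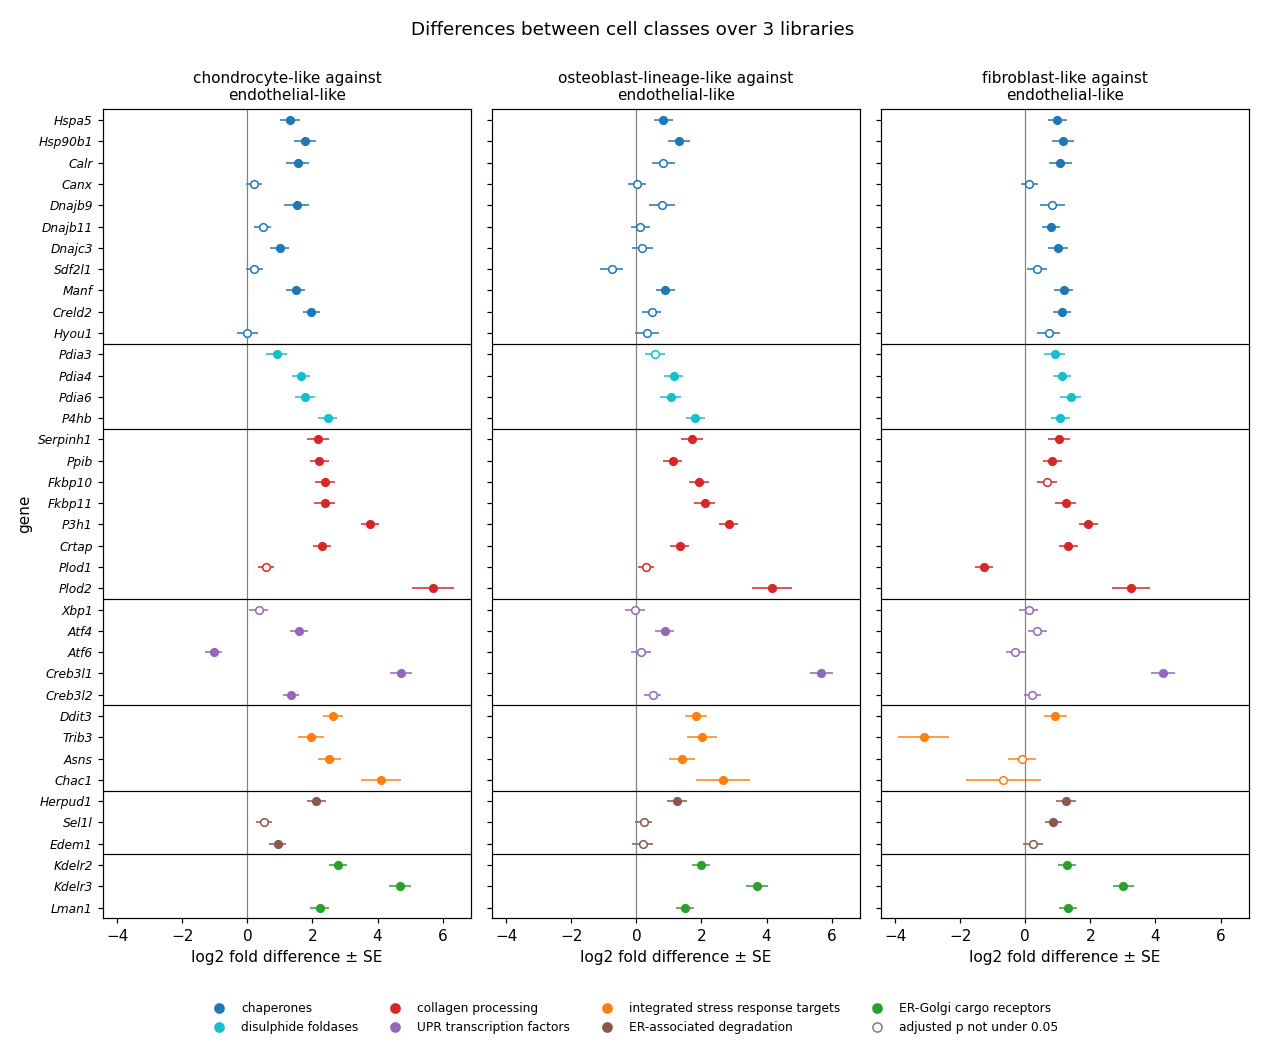
Difference of each gene (rows, coloured by role) between a stromal class and endothelial-like cells, as log2 fold difference with its SE over 3 libraries. Filled points passed an adjusted p of 0.05 (30 higher and 1 lower for chondrocyte-like cells), and Plod2, Creb3l1 and Kdelr3 lie farthest to the right in all 3 panels.

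Ordered over 7 classes with at least 15 cells in every library, 18 of the 38 members were highest in chondrocyte-like cells, 7 in fibroblast-like, 4 each in osteoblast-lineage-like and macrophage-like, 3 in endothelial-like and 2 in neutrophil-like cells. In 9 of the 18 the lowest chondrocyte library lay above the highest library of the class next by mean level. These were Serpinh1, Ppib, P3h1, Crtap, Plod2, Atf4, Kdelr2, Kdelr3 and Lman1. For Lman1 the Control fibroblast-like level (489.7 CPM) still exceeded the YKL chondrocyte level (467 CPM), and for Atf4 the PTH neutrophil-like level (252 CPM) exceeded the PTH chondrocyte level (240.1 CPM). In the other 9 of these 18 the chondrocyte level overlapped the next. How many of all genes were highest or stood apart in chondrocyte-like cells is not given, so these counts describe the members only. Outside the 18, the top class stood apart from the next for Dnajc3 (fibroblast-like), Sdf2l1 and Edem1 (macrophage-like), Ddit3 (neutrophil-like) and Creb3l1 (osteoblast-lineage-like). Tendon-like cells, 235 in PTH and 2 in Control, were not among the 7 classes. In PTH their collagen genes summed to 77138 CPM. Their Serpinh1 there, 1948 CPM, lay above the chondrocyte level of Control and YKL and below that of PTH. Their Creb3l1, 129 CPM, lay above the osteoblast-lineage-like level of YKL and below that of Control and PTH. The PTH and YKL neutrophil-like levels rest on 21 and 16 cells. A direct test of chondrocyte-like against osteoblast-lineage-like cells called 12 members higher and 2 lower, beside 7.24% and 8.44% of all genes. Plod2 differed most (1.54 ± 0.52 SE, adjusted p = 0.0454), followed by Creld2 (adjusted p = 0.000103), Chac1 (1.45 ± 0.50), Asns (1.11 ± 0.33) and Ppib (1.09 ± 0.28). The 12 also held Crtap, Kdelr3, Sdf2l1, P3h1, Herpud1, Creb3l2 and Kdelr2. They did not hold Serpinh1, Atf4 or Lman1, whose chondrocyte levels stood apart from the osteoblast-lineage-like ones in the order above. The 2 lower genes were Atf6 (-1.18 ± 0.28 SE, adjusted p = 0.00358) and Creb3l1. This comparison was the least firm of the 4. Without the PTH library 1 member was higher and 0 lower, beside 314 and 561 of all 10193 genes. With total UMIs as scaling 4 were higher, beside 485 of all 10825 genes.

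Other genes of the pathway moved with the members. Of 149 further pathway genes tested, 108 were higher and 3 lower in chondrocyte-like than in endothelial-like cells. In osteoblast-lineage-like cells 78 were higher and 4 lower, and in fibroblast-like cells 60 and 5. The median log2 difference was largest for the other collagen modification and maturation genes, at 3.36 in chondrocyte-like cells, where 17 of 19 were higher. They were led by the cross-linking enzyme Loxl2 (5.39 ± 0.42) and the hydroxylase partner P3h4 (3.94 ± 0.34). For translocation, signal peptidase and N-glycosylation 23 of 26 were higher (median 1.58), such as the oligosaccharyltransferase subunit Ostc (2.55 ± 0.30). For ER export and retrieval 25 of 31 were higher (median 1.44), such as Sec22b (2.46 ± 0.26). Of the Atf4 targets and amino acid supply genes 17 of 24 were higher and 1 lower, led by the proline synthesis enzyme Pycr1 (5.83 ± 0.38). The stress sensors themselves did not share this direction: 3 of 11 were higher and 2 lower, the 2 being Atf6b (adjusted p = 5.92e-05) and the kinase Eif2ak2 (-1.43 ± 0.28). The cytosolic heat shock list, set beside these as a check of general stress, had 4 of 12 higher and 3 lower (median 0.09). The immediate early genes that tissue digestion can induce had 8 of 16 higher and none lower (median 1.08), and their part in the stress response targets was not tested.

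Within the chondrocyte-like cells the members varied by state. Clusters made without the members were sorted into Col10a1-high ones, which mark hypertrophic cartilage, Ucma-high ones and the others. Ucma is a marker of early cartilage, but the Ucma-high clusters were not all early by Col10a1. Cluster 10 of that group, with 114 Control, 19 PTH and 4 YKL cells, had 2576 CPM of it. In Ucma-high clusters as a group Col10a1 was 886 CPM in Control and 177 in PTH, against 316 and 478 in the others. Col10a1-high cells were 188, 149 and 168 in Control, PTH and YKL, or 12.4%, 20.5% and 40.2% of chondrocyte-like cells. Against the other clusters, 25 of 38 members were lower in Col10a1-high cells and none higher, beside 17.4% of all 11623 genes lower and 17.2% higher. The member median was -0.60 on the log2 scale, against 0.00 over all genes. For 30 members the 3 Col10a1-high values all lay below the 3 other values. The share of all genes with such a separation is not given, so that count describes the members only. At an unadjusted p under 0.05 no member was higher, and DESeq2 also called 0 higher.

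In collagen processing 7 of 8 members were lower. Serpinh1 was 1031 CPM in Control, 1064 in PTH and 1026 in YKL in Col10a1-high cells, against 1989.8, 2284 and 2312 CPM in the others (-1.05 ± 0.11 SE, adjusted p = 0.000245). Plod2 was 603, 701 and 531 against 1725, 1444 and 1264 CPM (-1.24 ± 0.13), and Fkbp10 163, 124 and 108 against 303, 268 and 272 CPM (-1.09 ± 0.12). Ppib alone of this role did not pass (-0.29 ± 0.11 SE, adjusted p = 0.0683). Creb3l2 had the lowest fitted value of all members, 56.5, 56.2 and 43.9 against 177, 170.5 and 144 CPM (-1.63 ± 0.11 SE, adjusted p = 2.58e-05). The stress response targets were all lower too, such as Asns at 23.6, 24.7 and 30.9 against 101, 79.5 and 63.7 CPM (-1.54 ± 0.19) and Trib3 at 5.42, 23.6 and 16.4 against 42.8, 32.2 and 30.6 CPM (-1.19 ± 0.34). Of the 11 chaperones 3 passed, with Hsp90b1 at 657, 831 and 557 against 1298, 1556 and 1175 CPM (-0.96 ± 0.11), Hspa5 at -0.60 ± 0.12 and Manf at -0.35 ± 0.11. Foldases (3 of 4, P4hb at -0.83 ± 0.11) and cargo receptors (3 of 3, Kdelr2 at -0.87 ± 0.11) were lower as well. Xbp1, Atf4 and Creb3l1 fell with Creb3l2, by 0.62 ± 0.11, 0.54 ± 0.16 and 0.85 ± 0.14 on the log2 scale. In the wider pathway 79 of 153 genes were lower and 9 higher. They were not uniform: the cross-linking enzyme Loxl4 rose by 4.34 ± 0.28 and the BiP co-chaperone Dnajc10 by 1.35 ± 0.18, while the procollagen C-proteinase enhancer Pcolce was -2.03 ± 0.13. The call depended on the clustering. With the members and their pathway kept among the clustering genes, Col10a1-high clusters took in 315, 273 and 317 cells. In that setting 11 members were lower and 3 higher, beside 1426 and 1242 of all 11309 genes.

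The Ucma-high clusters held 452 Control, 151 PTH and 6 YKL cells, so Col10a1-high was set against Ucma-high in Control and PTH only. Of the members 21 were lower and 3 higher, beside 14.7% and 15.7% of all genes. The 3 higher ones were Dnajb9, a BiP co-chaperone, at 84.4 CPM in Control and 114 in PTH against 48.4 CPM in Control and 50.6 in PTH (1.09 ± 0.16 SE, adjusted p = 0.00175), Ddit3 (0.95 ± 0.27 SE, adjusted p = 0.0309) and Edem1 (0.73 ± 0.21 SE, adjusted p = 0.0344). Collagen processing was again lower in 7 of 8, with Fkbp10 at -1.04 ± 0.13 and Fkbp11 at -1.02 ± 0.12. Asns was lower (-1.11 ± 0.16) whereas Trib3 did not pass (1.12 ± 0.58 SE, adjusted p = 0.179). The immediate early genes also differed here, with 8 of 15 higher and none lower, and their part in the Ddit3 difference was not tested.

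Among the Col10a1-high clusters the members were lower again in 1, the cluster with the most Mmp13, the collagenase of terminal hypertrophic cartilage. It held 115 Control, 77 PTH and 114 YKL cells, with 1378, 765 and 1470.0 CPM of Mmp13 against 14.5, 15.9 and 20.9 CPM in the remaining Col10a1-high clusters. Col10a1 itself was 25312, 15062 and 24796 against 24797, 13742 and 17745 CPM. This cluster and its comparison were chosen after the values were seen. Of the 38 members 21 were lower in it than in the remaining Col10a1-high clusters and 1 was higher, beside 12.1% and 10.4% of all 9405 genes tested. All 8 collagen-processing members were lower. Fkbp10 was 84.7, 57.9 and 42.5 against 295, 185 and 217 CPM (-2.05 ± 0.17 SE, adjusted p = 2.82e-05). Crtap was 63.1, 57.9 and 54.2 against 176, 206 and 266 CPM (-1.99 ± 0.15), and Serpinh1 753, 668 and 657 against 1496, 1431 and 1648 CPM (-1.24 ± 0.13). In each of these genes the 3 libraries of the cluster lay below all 3 of the remaining clusters. The cargo receptors were lower by about the same amount as each other (Kdelr2 -0.99 ± 0.15, Kdelr3 -0.99 ± 0.13, Lman1 -0.99 ± 0.14). Several stress members were not called. Hspa5 differed by -0.02 ± 0.17 SE, adjusted p = 0.944, and Herpud1 and Sel1l by -0.01 and -0.01. Trib3 was the 1 higher member, at 4.33, 42.4 and 24.4 against 7.25, 6.06 and 2.82 CPM (2.10 ± 0.68 SE, adjusted p = 0.0468), higher in PTH and YKL and lower in Control. This call did not last: with a finer clustering Trib3 was -2.79 (adjusted p = 0.0256), and without the PTH or YKL library the adjusted p was 0.231 or 0.343. Without the YKL library 12 members were lower, beside 487 of all 10094 genes. Matrix genes moved in this comparison too: 30 of 41 were lower and 5 higher, among them Col2a1 at 22294, 23405 and 22077 against 48067, 44731 and 53996 CPM. Leaving the Mmp13-high cluster out of the Col10a1-high group left 3 members lower and 2 higher against Ucma-high clusters, beside 1090 and 1121 of all 11469 genes. Against the others 15 members were lower and 1 higher, beside 1336 and 1155 of all 11007 genes. P3h1 and Crtap then stood at 0.11 and 0.14 against the others.

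**Figure D3:**
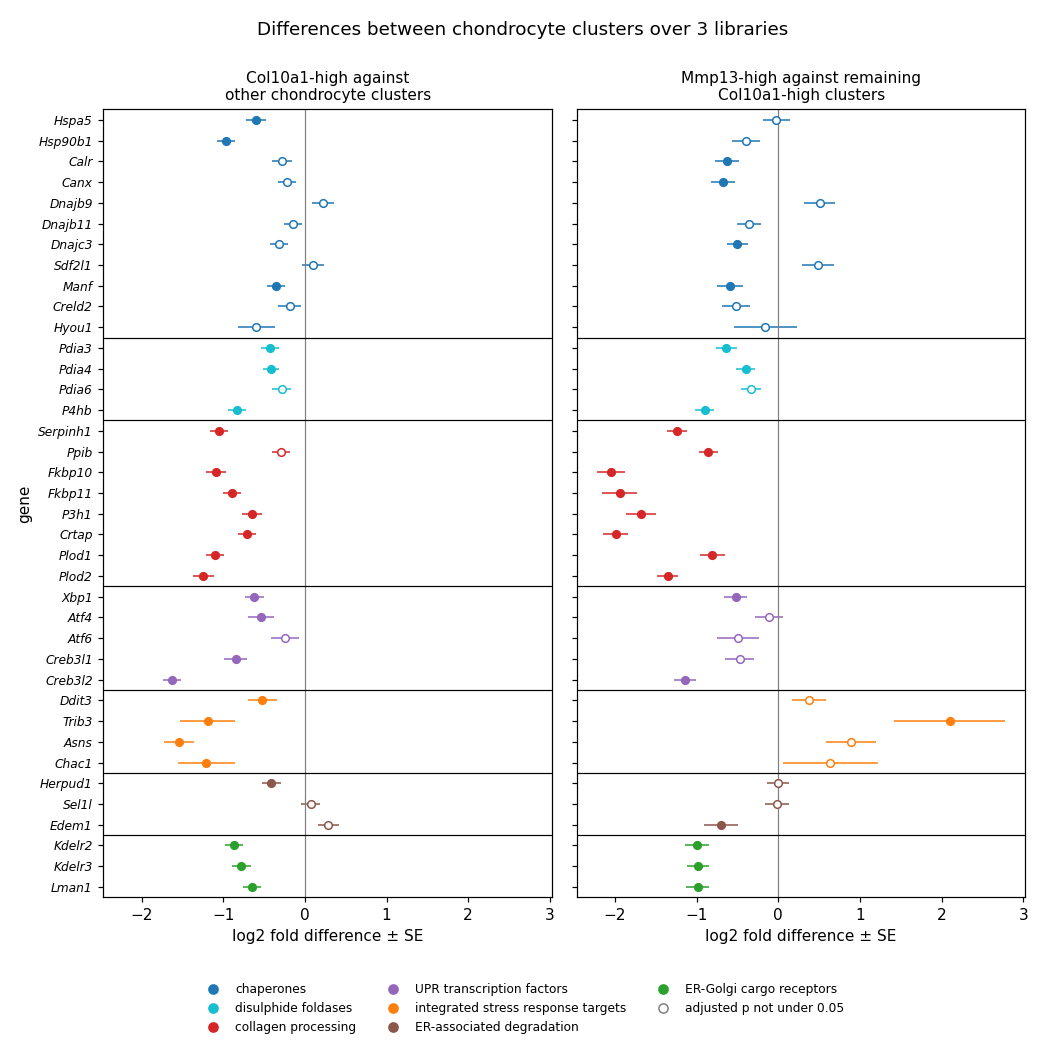
Difference of each gene (rows, coloured by role) between Col10a1-high and other chondrocyte clusters (left) and between the Mmp13-high cluster and the remaining Col10a1-high clusters (right), as log2 fold difference with its SE over 3 libraries. Filled points passed an adjusted p of 0.05 (25 lower on the left, 21 lower and 1 higher on the right), and the collagen-processing genes lie left of 0 in both panels.

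Across the 13 chondrocyte clusters, 19 of the 38 members were lowest in the Mmp13-high cluster. The shares of all genes highest or lowest in each cluster are not given, so counts by cluster describe the members only. Summed over its role, collagen processing stood at 2715 CPM in the Mmp13-high cluster. It was 8059 CPM in cluster 2, which was led by Pcp4 and Mt1. Asns (118 CPM) and Chac1 (33.1 CPM) were highest in that cluster among the 13. Cluster 0, with 323 cells from all 3 libraries and led by Espn and Chchd10, had 191 CPM of Ddit3, 106 of Trib3 and 426 of Atf4, the highest of each among the clusters. The same cluster was lowest for 7 members, including Hyou1 (5.01 CPM), Calr (407) and Manf (203), but highest for the chaperone co-factor Dnajb9 (127 CPM) and second for Hsp90b1 (1585 CPM). Cluster 11, with 41 cells, was highest for 20 members, including Hsp90b1 (2245 CPM), Canx (529.9) and Plod2 (2856). It was also the shallowest, with a median of 2501 UMIs per cell against 15319 to 29838 in the other clusters, and its mitochondrial share was the highest, at 6.62%. The collagen genes made up 235002 CPM of its UMIs. The part of depth in those levels was not tested, and leaving the cluster out changed the counts of the state comparisons by at most 1. Levels by cluster are pooled over libraries and carry no test, since the clusters differ in their share of each library.

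**Figure D4:**
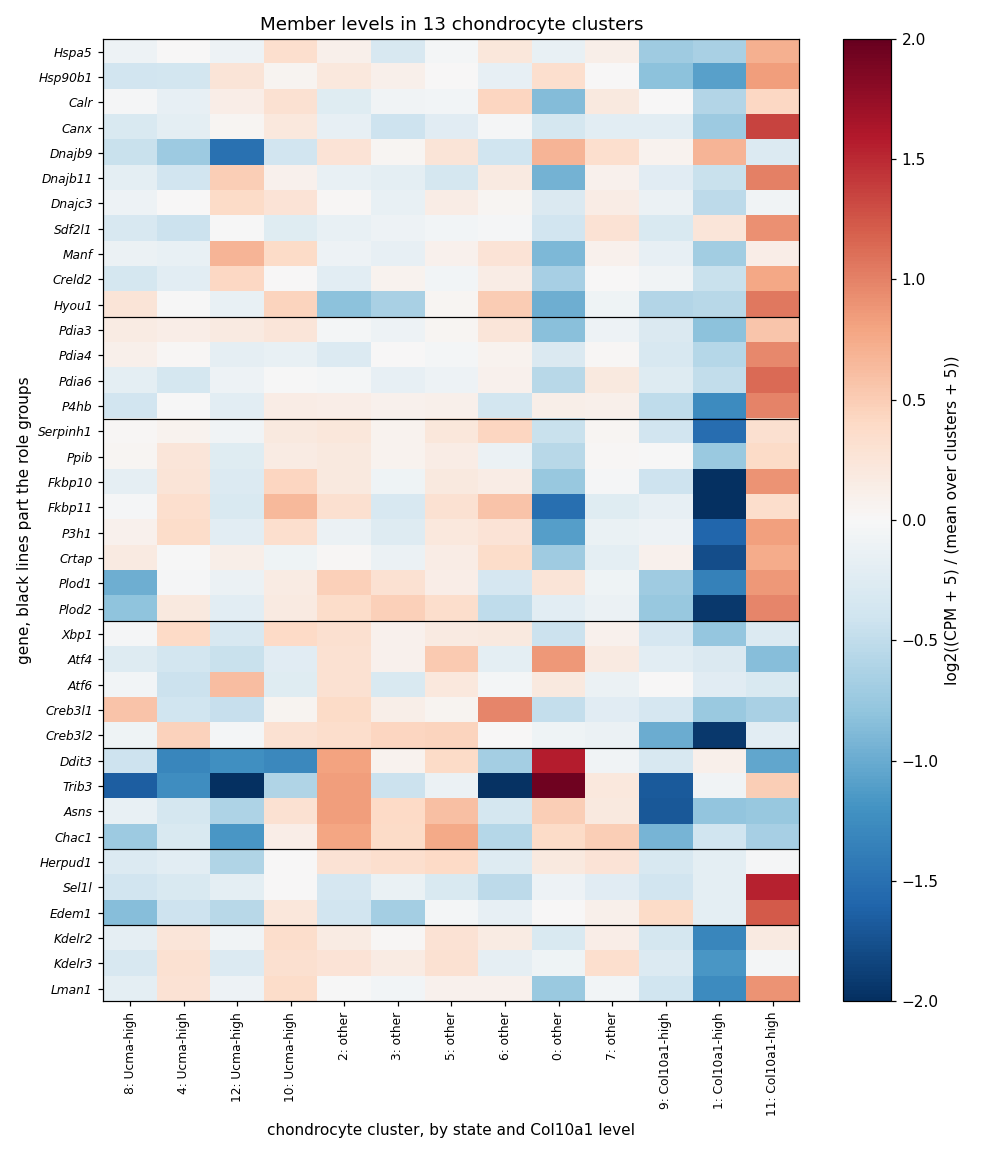
Level of each gene (rows, grouped by role) in 13 chondrocyte clusters (columns, ordered by state and then Col10a1), as log2 of its CPM plus 5 over the mean of the clusters plus 5. Cluster 1, the Mmp13-high one, is blue for collagen processing, cluster 0 is red for Ddit3, Trib3 and Atf4 and blue for Calr, Manf and Hyou1, and the shallow cluster 11 is red for most chaperones and foldases.

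Between treatments the members differed little in chondrocyte-like cells. With 1 library a group, the ratio of CPM is given with, in brackets, an exact 95% interval that covers counting error only, and a gene counts as different at 1.5-fold or more with at least 50 UMIs over both libraries. All 38 members passed that minimum. In PTH against Control 1 member was lower and none higher, beside 3.04% and 6.54% of 11559 genes. In YKL against Control 3 were lower and none higher, beside 9.62% and 9.46% of all genes. In YKL against PTH none reached 1.5-fold, beside 8.68% lower and 6.25% higher. The PTH and YKL comparisons share the Control library. Counting error was small at this depth, and many intervals excluded 1 by small amounts. By their interval, 19 members in PTH and 22 in YKL were below Control, and 12 and 8 above. The shares of all genes with such intervals are not given, so these counts describe the members only.

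Chac1 was the member below Control in PTH, at 23.5 CPM in Control and 13.7 in PTH (600 and 183 UMIs), a ratio of 0.582 [0.49 to 0.688]. In YKL the 3 were Plod2, Creb3l2 and Asns, with ratios of 0.645 [0.633 to 0.658], 0.637 [0.599 to 0.676] and 0.649 [0.594 to 0.708]. Creb3l2 was 169 CPM in Control, 142 in PTH and 107 in YKL, and Asns 80.1 CPM in Control, 62.7 in PTH and 52.0 in YKL; Plod2 is given above. These 3 are also lower in Col10a1-high clusters, and the YKL library held the largest share of such cells, as given above. The part of the mix of states in these ratios was not tested. Outside the Col10a1-high clusters the Asns ratio was 0.633 [0.572 to 0.7]. With the chondrocyte clusters weighted equally no member was 1.5-fold lower in YKL, and the Creb3l2 ratio was 1.03. By role, collagen processing had a median log2 ratio of -0.24 in PTH and -0.38 in YKL, chaperones 0.11 and 0.12, against 0.00 and -0.03 over all genes. The stress response targets had -0.28 and -0.35. Serpinh1 was 1.06 [1.04 to 1.07] in PTH and 0.965 [0.95 to 0.98] in YKL, and Hspa5 0.922 [0.9 to 0.944] and 0.885 [0.863 to 0.907]. Of 153 other pathway genes tested 4 were higher and 6 lower in PTH, and 7 and 12 in YKL. They included Loxl4, at 1.86 [1.74 to 1.98] in PTH and 3.25 [3.07 to 3.45] in YKL, the one-carbon enzyme Mthfd2 at 0.488 [0.446 to 0.532] in YKL, and Atf3 at 1.68 [1.57 to 1.81] and 2.64 [2.48 to 2.81]. Atf3 is also an immediate early gene, and 3 of 16 genes of that list were higher and 1 lower in PTH, 9 higher and none lower in YKL.

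**Figure D5:**
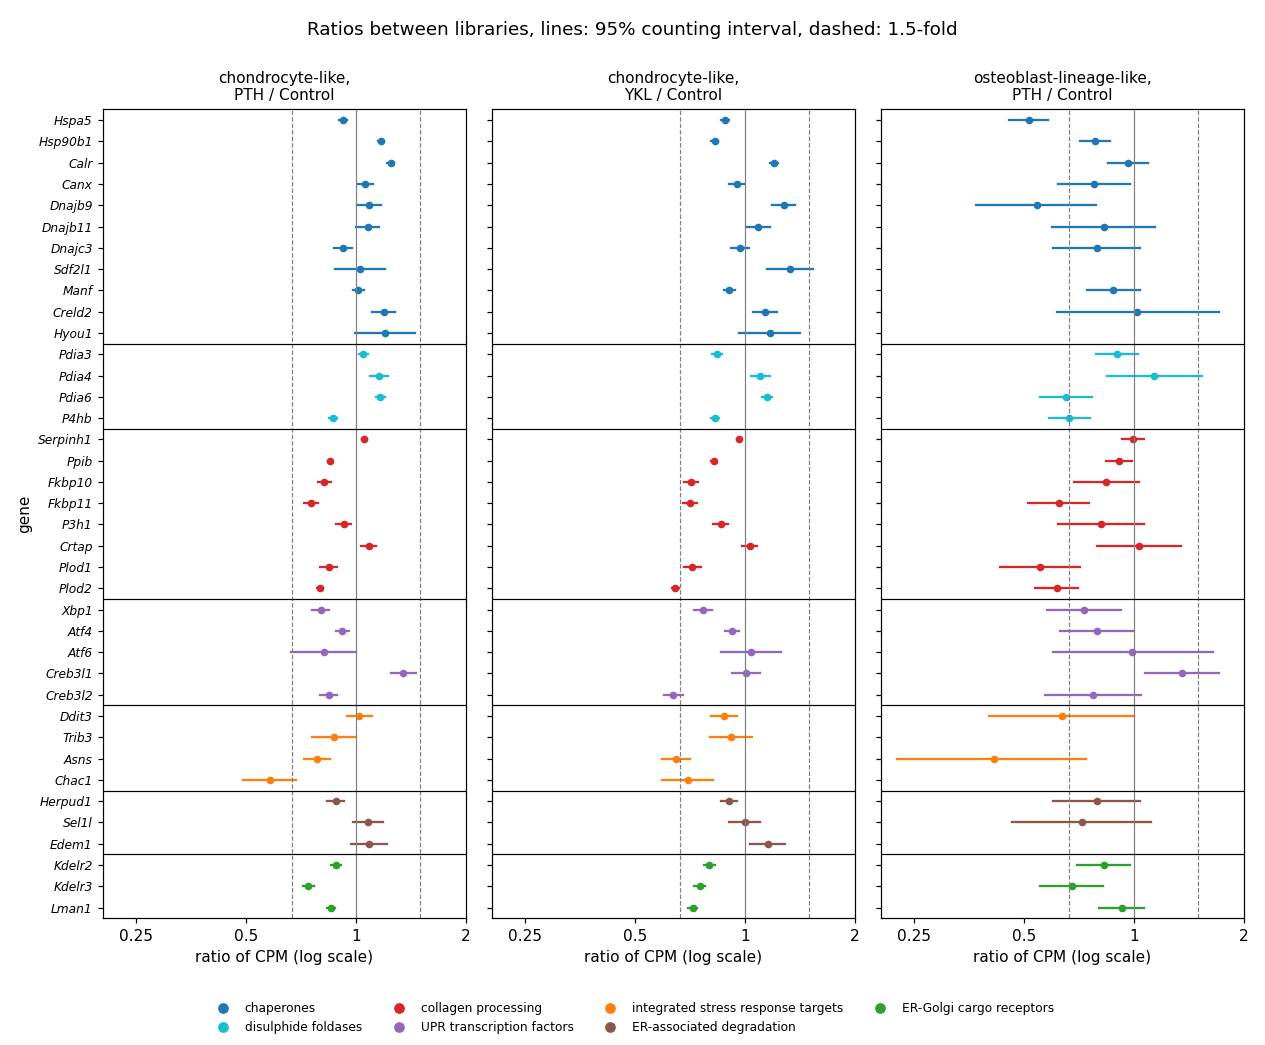
Ratio of each gene (rows, coloured by role) between libraries on a log scale, with its 95% counting interval; dashed lines mark 1.5-fold and genes under 50 UMIs are not drawn. Most points in chondrocyte-like cells (left and middle panels) lie between the dashed lines, and in osteoblast-lineage-like cells (right) 9 lie at or below the lower one, with wider intervals.

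Within single states few members passed the 1.5-fold limit. In Col10a1-high clusters 2 of 35 members tested were higher and 0 lower in PTH, beside 5.31% and 6.19% of all genes, and 2 of 38 were higher and 1 lower in YKL, beside 6.21% and 5.01%. In the other clusters 1 was higher and 1 lower in PTH, beside 5.54% and 4.16%, and 1 higher and 3 lower in YKL, beside 7.29% and 6.66%. In Ucma-high clusters 2 were higher and 1 lower in PTH, beside 9.41% and 6.75%. In Col10a1-high clusters Trib3 was 5.42, 23.6 and 16.4 CPM in Control, PTH and YKL, from 14, 60 and 78 UMIs. The ratios to Control were 4.35 [2.4 to 8.42] in PTH and 3.02 [1.7 to 5.78] in YKL. Chac1 there was 4.26, 10.2 and 12.2 CPM, with a ratio of 2.86 [1.49 to 6.04] in YKL. Creb3l1 was 1.52 [1.16 to 1.99] in PTH, and Fkbp10 0.658 [0.577 to 0.75] in YKL. In the other clusters Chac1 was 0.509 [0.416 to 0.62] in PTH and 0.58 [0.48 to 0.697] in YKL, and Ddit3 was 0.623 [0.563 to 0.689] in YKL beside the Asns ratio given above. In Ucma-high clusters Ddit3 was 1.99 [1.58 to 2.51] and Creb3l1 1.51 [1.28 to 1.77] in PTH. Whether these ratios differ between states was not tested, since each rests on 1 library a group.

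The osteoblast-lineage-like cells showed more members below Control in PTH. Of 33 members with enough UMIs 9 were at least 1.5-fold lower and none higher, beside 10.4% and 10.2% of 4498 genes. Hspa5 was 869.8 CPM in Control and 448 in PTH, a ratio of 0.515 [0.457 to 0.58]. Asns, with 37 and 19 UMIs, was 0.415 [0.225 to 0.74], Dnajb9 0.542 [0.369 to 0.789] and Ddit3 0.636 [0.402 to 0.999]. Of collagen processing, Plod1, Plod2 and Fkbp11 were lower (0.554 [0.429 to 0.713], 0.615 [0.537 to 0.704] and 0.623 [0.514 to 0.754]) whereas Serpinh1 was not (0.995 [0.927 to 1.07]). The foldases P4hb and Pdia6 completed the 9, at 0.666 [0.584 to 0.758] and 0.652 [0.554 to 0.767]. The member median was -0.34, against 0.02 over all genes. These ratios rest on 85 and 57 cells of 1 cluster. In the same cells Mmp13 was 514 and 1152 CPM in Control and PTH, and the cartilage gene Col2a1 7541 and 4367 CPM, and the part of the mix of cells in the ratios was not tested. The immediate early genes were lower in PTH as well, 6 of 14 against 1 higher. Of 115 other pathway genes 18 were lower and 7 higher. The former included the ER oxidase Ero1l (0.468 [0.365 to 0.597]) and the cross-linker Lox (0.36 [0.31 to 0.418]), the latter Pcolce (2.24 [1.96 to 2.57]).

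Endothelial-like cells showed no common direction. In PTH against Control 2 of 35 members tested were higher and 2 lower, beside 6.73% and 4.43% of 7308 genes. The intervals of Hyou1 (1.77 [0.96 to 3.48]), Asns (1.55 [0.864 to 2.92]) and Ddit3 (0.631 [0.368 to 1.09]) included 1, and that of Kdelr3 (0.488 [0.296 to 0.802]) did not. In YKL against Control 1 of 28 was higher and 2 lower, beside 9.27% and 7.39% of 4939 genes. They were Pdia4 (1.62 [1.07 to 2.43]), Plod2 (0.426 [0.173 to 0.914]) and Dnajb9 (0.652 [0.357 to 1.13]). Plod2 in endothelial-like cells, at 37.8, 48.3 and 16.1 CPM, was no higher than in the Control neutrophil-like cells. The YKL ratios rest on 51 endothelial-like cells.

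Macrophage-like cells, with 130 Control and 78 PTH cells, had 8 of 27 members at least 1.5-fold higher in PTH and 1 lower, beside 20.7% and 8.01% of all genes. The 8 were Hsp90b1 (1.62 [1.48 to 1.78]), Calr (1.76 [1.6 to 1.94]), Manf (1.7 [1.46 to 2.0]), Dnajc3 (1.68 [1.3 to 2.17]), Pdia3 (1.51 [1.32 to 1.72]), Pdia4 (1.67 [1.18 to 2.37]), Crtap (1.91 [1.16 to 3.18]) and Edem1 (1.68 [1.27 to 2.22]), given as ratio and counting interval. Serpinh1, a gene of collagen-making cells, was 0.592 [0.329 to 1.03] from 41 and 20 UMIs. The median log2 ratio was 0.34 over the members and 0.21 over all 4842 genes tested there. In fibroblast-like cells 1 of 36 members was higher in PTH, Edem1 at 1.52 [0.97 to 2.48], and 1 lower, Crtap at 0.634 [0.528 to 0.764], beside 9.91% and 6.9% of all genes. These comparisons were added after the cell counts were seen and rest on 1 library a group.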

How the data were processed

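In all, 3 libraries of single cells from collagenase-digested callus were analysed, 1 each for Control, PTH and YKL. The deposited files hold raw UMI counts per gene and cell, counted by Cell Ranger (version 4.0.0, per the file headers), and the build mm10 and Seurat are named in the submitters' processing notes. Barcodes under 500 genes or over 10% of mitochondrial UMIs were dropped, and doublets marked per library by Scrublet were left out. Clusters (scanpy 1.11.5, 2000 variable genes without members or pathway genes, 30 components, 15 neighbours, Leiden resolution 0.8, no integration) were named from at least 3 markers. Chondrocyte clusters with at least 5000 CPM of Col10a1 were called Col10a1-high. Counts were summed per class and library, and classes of at least 15 cells in every library were compared with edgeR 4.0.16 (TMM, quasi-likelihood test, library as a block, Benjamini-Hochberg adjustment over all genes, threshold 0.05). The libraries in these tests are of different treatments. With library as a block, the p-values rest on how differences between classes or states vary from library to library. The edgeR test was also run on simulated counts with known fold changes, for the comparison of chondrocyte-like with endothelial-like cells only. Treatments had 1 library each and no test. Members, lists and rules were chosen with earlier results of these data known. All members are named, and those given in full lay farthest from no difference in their role group, with others added after their values were seen. The comparison with the other chondrocyte clusters over 3 libraries was also added after cell counts were seen. Intervals cover counting error only.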

Additional observations from a re-analysis of the deposited data

Results flagged for a closer look

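In PTH against Control, Asns had a ratio of 1.55 in endothelial-like cells and 0.415 in osteoblast-lineage-like cells, so the 2 cell classes went opposite ways. The difference between the classes was not tested, because each ratio rests on 1 library a group, and the endothelial interval included 1.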

How the results depend on the processing

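No paired analysis was possible because each group had 1 library, so no replicate numbers are shared beyond 1; library was a block in every class and state test. Leaving out each library in turn, members higher in chondrocyte-like than endothelial-like cells numbered 27 to 30 and members lower 0 to 1. The same ranges were 16 to 18 and 0 to 0 for osteoblast-lineage-like cells, 10 to 20 and 1 to 2 for fibroblast-like cells, and 1 to 8 and 0 to 2 for chondrocyte-like against osteoblast-lineage-like cells. Counts over all genes moved as well. Without Control, PTH and YKL in turn, 9570, 10193 and 11580 genes were tested. Of these, 2033, 1744 and 2479 were higher in chondrocyte-like than endothelial-like cells. In osteoblast-lineage-like cells 1345, 1156 and 1618 were higher, and in fibroblast-like cells 1201, 1062 and 1701. In chondrocyte-like against osteoblast-lineage-like cells 499, 314 and 551 were higher. For Col10a1-high against other clusters the member ranges were 0 to 1 higher and 19 to 24 lower, and for the Mmp13-high cluster 0 to 3 and 12 to 19. Over all genes, 1476 of 11322, 1192 of 11463 and 1428 of 11545 were lower in the first comparison. In the second 1055 of 9778, 635 of 9725 and 487 of 10094 were lower. Leaving out a library was not run for Col10a1-high against Ucma-high, which has 2 libraries.

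Scaling by total UMIs gave 1 member lower in osteoblast-lineage-like cells, beside 2552 of all 10825 genes. It gave 4 higher in chondrocyte-like than osteoblast-lineage-like cells, beside 485 of them. A minimum of 1000 genes gave 20 higher in the latter comparison, beside 1421 of all 10573 genes, against 784 of 10825 in the main fit. It gave 1 lower in fibroblast-like cells, beside 1895 of all 10573 genes. With member and pathway genes kept in the clustering, 3 were higher and 11 lower against other clusters. Against Ucma-high ones 4 were lower, beside 1209 of all 11488 genes. In that setting, the differences from other clusters turned positive for Calr (0.41), Manf (0.38), Hyou1 (0.87), Pdia3 (0.19), Fkbp11 (0.47), P3h1 (0.26), Creb3l1 (0.0114) and Lman1 (0.0662), and that of Manf from Ucma-high clusters was 0.0309. The following were chosen after seeing the data. Without the Mmp13-high cluster, 1 was higher and 15 lower against other clusters, with P3h1 at 0.11 and Crtap at 0.14, and 3 were lower against Ucma-high ones. For the Mmp13-high cluster, members higher numbered 3 with a minimum of 1000 genes (Manf then 0.0215), 2 at a mitochondrial maximum of 5%, 0 with doublets kept, 3 with members kept in the clustering, 0 at resolution 1.2 (Trib3 then -2.79), 3 by total UMIs and 3 with no filter. In the same order, the genes higher over all tested were 900 of 9195, 877 of 9109, 1124 of 10610 and 1658 of 10645. Resolution 1.2, total UMIs and no filter gave 661 of 10319, 1338 of 9405 and 1049 of 19110. The causes were not tested.

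Between treatments, thinning each cell to 2000 UMIs gave in chondrocyte-like cells 1 higher and 2 lower for PTH and 1 higher for YKL against Control. It gave 0 and 0 in endothelial-like cells for PTH, 3 higher and 1 lower there for YKL, and 3 lower of 14 tested in osteoblast-lineage-like cells. In Col10a1-high clusters only, PTH had 2 higher and 0 lower, YKL 2 and 1 (Asns 1.31), and YKL against PTH 2 and 1. In Ucma-high clusters only, PTH had 2 higher, and comparisons with YKL gave no value. Weighting clusters equally gave 1 higher and 0 lower for YKL, with Creb3l2 at 1.03. Resolution 1.2 gave 1 higher and 1 lower for PTH and 0 lower for YKL in endothelial-like cells, and 1 higher in osteoblast-lineage-like cells. A minimum of 20 UMIs gave 2 higher for YKL in endothelial-like and 1 higher for PTH in osteoblast-lineage-like cells, and a mitochondrial maximum of 5% gave 2 higher in the latter. Beyond those stated earlier, the shares of all genes in these treatment settings are not given, so the counts describe the members only. Some class comparisons gave no value where a class fell under 15 cells.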
